A study of Homo sapiens with 12 samples.

Results

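CDK1, the mitotic cyclins and the kinases that act with them were followed at the RNA level in cancer cells that had evolved under repeated exposure to hydroxychloroquine (HCQ), a lysosomal inhibitor. The members were taken by symbol from the 28278 genes of the count table, and all 10 were present and passed the filter on low counts in both cell lines. They were CDK1, its cyclins CCNA2, CCNB1 and CCNB2, the phosphatase CDC25C, the ubiquitin ligase coactivator CDC20, and the kinases PLK1, AURKA, AURKB and NEK2. Bulk polyA RNA was counted per gene in 12 libraries, 3 in each of 4 groups.

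CDK1 is the cyclin-dependent kinase that drives cells into mitosis. It is active when bound to cyclin A or cyclin B, is held inactive by the kinases WEE1 and PKMYT1, and is released by phosphatases of the CDC25 family. PLK1 and the Aurora kinases help to switch it on and to build the spindle, and CDC20 directs the anaphase-promoting complex (APC/C) to degrade cyclins as mitosis ends. RNA of these genes is low in G1 and builds up through G2 and M in cycling cells.

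The groups were control OVCAR3, HCQ-evolved OVCAR3, control CCL218 and HCQ-evolved CCL218. The study describes OVCAR3 as an ovarian and CCL218 as a colorectal cancer line, the latter derived from HT29. HCQ-evolved cells had received 15 drug pulses of 48 h at doses that rose over the passages, and they then grew for 7 days without drug before harvest. Control cells were passaged on a paired plate without HCQ. Wells of each 96-well plate were combined by plate position into a left (L), a middle (M) and a right (R) pool, so the 3 pools of a group came from a single plate and p-values measure only the spread between these pools. Labels give passage 19 for control and passage 15 for HCQ-evolved pools, so passage and drug history cannot be told apart. In bulk RNA, more cells in G2 or M and more RNA per cell also cannot be told apart.

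Libraries held 31147822 to 59965861 counts, and a member had 707 to 14195 counts in a pool. Libraries were not alike in their balance of short and long transcripts. When each was set against the mean of its line, its log2 deviation followed transcript length across genes with a Spearman's rho between -0.505 (control CCL218 L) and 0.556 (HCQ-evolved OVCAR3 R), and each group had pools of either sign. Of 8 ovarian epithelial markers, SOX17, EMX2 and ESR1 had at most 3 counts in every pool of both labels, and the list summed to 57.7 to 94.0 CPM (a gene's counts scaled to the normalized library total) in the libraries labelled OVCAR3 and to 60.6 to 92.4 CPM in those labelled CCL218, so it did not separate the labels. Of 8 intestinal markers, 5 to 6 reached 1 CPM in each pool of a group. Their sum ranged from 906.7 to 1120 CPM in control and from 223.9 to 647.8 CPM in HCQ-evolved OVCAR3, and from 1104 to 1596 and from 1153 to 1211 CPM in control and HCQ-evolved CCL218. In CCL218, 4 of the 6 intestinal markers tested rose (edgeR, threshold 0.05 after adjustment), against 3.82% of all genes. These were CDX2, CDH17, GPA33 and CEACAM5. LGALS4 went from 1046 ± 279.8 to 785.0 ± 51.7 CPM (log2 fold change -0.42, adjusted p = 0.245), and VIL1 from 187.4 ± 13.0 to 184.8 ± 21.6 CPM. The part of these markers in the results below was not tested. Between controls of the 2 labels 3.42% of all genes differed in either direction (431 of 12613, edgeR, adjusted p under 0.05). The markers thus do not show that the 2 labels are distinct lines, and OVCAR3 and CCL218 stand below for the libraries so labelled, in each comparison between lines as well. Fibroblast markers summed to at most 3.34 CPM in any pool. Of the leukocyte markers reported here, LYZ and CD68 reached 1 CPM in each pool. CD68, also a lysosomal protein, was higher in every HCQ-evolved pool than in any control pool of its line, at 15.0 ± 2.77 against 35.7 ± 7.83 CPM in OVCAR3 (adjusted p = 0.0510) and 11.2 to 14.01 against 48.0 to 51.5 CPM in CCL218 (adjusted p = 0.00102). The part of CD68 in the results was not tested.

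The genes lie on different chromosomes, apart from a few that share a chromosome at a distance (GENCODE 44 on hg38). CDK1 is at chr10:60778331-60794852 on the plus strand, CCNA2 at chr4:121816444-121823883 on the minus strand, CCNB1 at chr5:69167135-69178245 on the plus strand and CCNB2 at chr15:59105126-59125045 on the plus strand. CDC25C is at chr5:138285269-138338355 (minus), CDC20 at chr1:43358981-43363203 (plus), PLK1 at chr16:23677656-23690367 (plus), AURKA at chr20:56369389-56392337 (minus), AURKB at chr17:8204733-8210600 (minus) and NEK2 at chr1:211658657-211675630 (minus). CDC25C shares 293 exonic bases with FAM53C on the opposite strand, CCNA2 shares 254 with EXOSC9, and PLK1 shares 58 with ERN2 and 553 with a long noncoding RNA. Whether counting used strand is not given in the sources used here, so the levels of CDC25C, CCNA2 and PLK1 may hold some reads of these partners. AURKAP1, a processed copy of AURKA, had 379 counts over all 12 pools.

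Promoters of many genes that peak in G2 and M carry short elements, a CCAAT box and the cell cycle genes homology region (CHR). The letters TTTGAA (CHR) and CCAAT were searched on both strands in RefSeq windows of 300 bases around the start site on GRCh38.p14. A window was found for 9 of the 10 genes, AURKA being the one with no entry. Where a gene had several windows (CDK1, CDC25C and AURKB), the one nearest to the start of its canonical transcript was used, which for AURKB lay 326 bases from it and for the others at it. All 9 held CCAAT, and 5 of 9 held TTTGAA, namely CDK1, CCNB2, CDC25C, CDC20 and PLK1, and no match overlapped another. Among all 35116 windows, 34.6% held CCAAT, 15.2% TTTGAA and 5.90% both. These matches describe the exact letters only, so an element with other letters would be missed, and no binding was measured. For the 5 genes that held it, 30 bases around TTTGAA (in capitals) are shown 5′ to 3′ for matches on the strand of the gene, since these genes can be compared by how far the element lies from the start site.

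CDK1, chr10:60778397-60778426, plus strand, 69 bases before the start: ctgattggctgcTTTGAAagtctacgggct

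CDK1, chr10:60778453-60778482, plus strand, 13 bases before the start: tagcgcggtgagTTTGAAactgctcgcact

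CCNB2, chr15:59105105-59105134, plus strand, 29 bases before the start: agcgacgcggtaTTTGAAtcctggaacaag

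CDC25C, chr5:138331817-138331846, minus strand, 30 bases before the start: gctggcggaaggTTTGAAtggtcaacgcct

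CDC20, chr1:43358904-43358933, plus strand, 65 bases before the start: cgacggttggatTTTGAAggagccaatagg

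PLK1, chr16:23678848-23678877, plus strand, 29 bases before the start: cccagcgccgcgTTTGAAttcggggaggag

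The element thus lay 29 to 30 bases before the start in CCNB2, CDC25C and PLK1 and at 65 in CDC20 and at 69 and 13 in CDK1. Matches on the opposite strand, not shown, lay 9 bases after the start in CDK1 and 178 before it in CDC20. The 130 bases before the start are shown for CCNB2 and CDC20, which hold both elements, and for CCNA2. The stretch of CCNA2 holds CCAAT on the opposite strand (ATTGG as read here) but not the exact letters TTTGAA. Variants of the CHR letters were not searched for. Capitals mark both elements.

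CCNB2, chr15:59105016-59105145, plus strand: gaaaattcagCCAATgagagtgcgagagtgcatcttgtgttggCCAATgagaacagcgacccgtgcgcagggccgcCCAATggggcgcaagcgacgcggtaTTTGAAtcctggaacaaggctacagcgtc

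CDC20, chr1:43358851-43358980, plus strand: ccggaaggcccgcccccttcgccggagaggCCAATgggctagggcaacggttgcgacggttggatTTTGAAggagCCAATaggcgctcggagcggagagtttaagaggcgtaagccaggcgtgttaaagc

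CCNA2, chr4:121823884-121824013, minus strand: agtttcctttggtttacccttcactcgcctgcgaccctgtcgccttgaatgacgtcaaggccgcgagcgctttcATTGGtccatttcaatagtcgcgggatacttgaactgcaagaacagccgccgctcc

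In the stretch shown for CCNB2, 3 CCAAT boxes preceded the CHR letters, and in that of CDC20 a CCAAT box stood on each side of them.

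The comparison of HCQ-evolved with control pools asks whether cells that had adapted to the drug held different amounts of this RNA after drug withdrawal. In OVCAR3, 6 of the 10 genes rose at an adjusted p under 0.05 (edgeR's quasi-likelihood test with Benjamini-Hochberg adjustment over 12204 genes): CDK1, CCNB1, CCNB2, CDC20, AURKA and NEK2. Of all genes tested, 0.647% were higher by the same rule. All 10 genes had an unadjusted p under 0.05 in this direction, against 8.38% of all genes. For all 10, the lowest HCQ-evolved pool exceeded the highest control pool, which held for 13.0% of all genes. The median log2 fold change (HCQ-evolved over control) was 0.94, with a range from 0.75 to 1.47, and that of all genes was 0.016.

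In CCL218 all 10 log2 fold changes were lower in value than in OVCAR3. With edgeR 0 of these 10 differences passed a test of their own (all genes, 0.182% lower). DESeq2's Wald test of the difference called 2 of them, and 157 of all 12613 genes as lower. With edgeR in CCL218, CDK1, CDC25C and NEK2 rose, 3 of 10 against 3.82% of all 12241 genes tested. At an unadjusted p under 0.05, 8 of 10 were higher (all genes, 12.5%), and pools did not overlap for the same number (all genes, 18.6%). PLK1 and AURKB were the exceptions in both counts. The median log2 fold change was 0.43 and the values ran from -0.05 to 0.73, against a median of -0.017 for all genes. With plate position as a block, 4 genes rose in CCL218, CCNA2 being the added one, against 7.82% of all genes. This block takes pools of the same position as pairs, and these correlated at only 0.195 to 0.506 in CCL218. In OVCAR3 the same block gave 0 of 10, where 17 of all 12204 genes were higher.

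**Figure D1:**
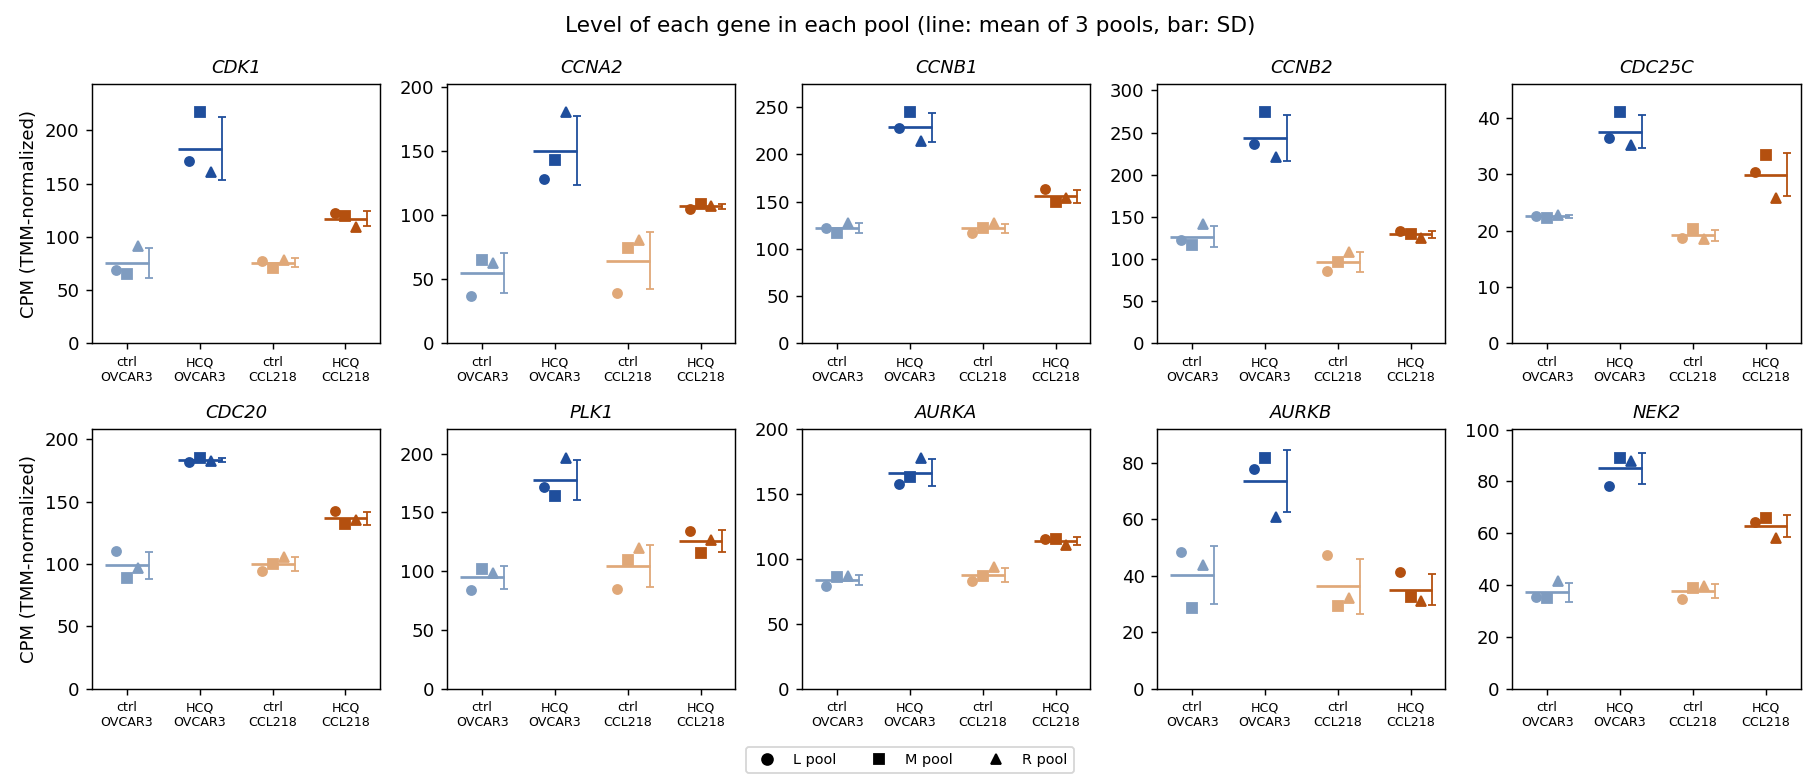
TMM-normalized CPM (y axis, from 0) of each of the 10 genes in the 3 pools (L, M and R) of each group, with the mean as a line and the SD as a bar. In OVCAR3 evolved and control pools were apart, the evolved ones higher, for all 10 genes, and in CCL218 for 8, with overlap for PLK1 and AURKB.

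These calls changed with single pools left out, as did the number of calls over all genes. Such a fit has a pool fewer in one group, which weakens the test. A lost call thus cannot be told apart from the pull of the pool left out. The median log2 fold change of the 10 genes was 0.94 to 0.99 in these OVCAR3 fits and 0.36 to 0.49 in those of CCL218. With a pool left out, none of the 10 genes passed in OVCAR3 without control L, M or R or without HCQ-evolved L or M (adjusted p 0.0796 to 0.318), and all 10 passed without HCQ-evolved R (0.0108 to 0.0499). Over all genes, 0 of 12018, 3 of 12033 and 1 of 12042 were higher without control L, M and R. Without HCQ-evolved L, M and R, 9 of 12119, 3 of 12122 and 233 of 12113 were. In CCL218, 8 passed without control L, only NEK2 without control M (adjusted p = 0.0463), and none without control R or any HCQ-evolved pool (0.0804 to 0.987). Of all genes there, 1646 of 12102, 296 of 12122 and 112 of 12123 were higher without control L, M and R. Without HCQ-evolved L, M and R, 108 of 12134, 72 of 12131 and 108 of 12138 were. All 10 log2 fold changes in OVCAR3 stayed above 0 in each of these fits, and in CCL218 all but that of AURKB did. The smallest change among the OVCAR3 fits was 0.69 (AURKB). With the trend along transcript length and GC content removed from each library, all 10 passed in OVCAR3 and 5 in CCL218. Calls rose over all genes as well. In OVCAR3 615 of 12204 were higher with the trend removed, against 79 before, and in CCL218 1180 of 12241, against 468.

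**Figure D2:**
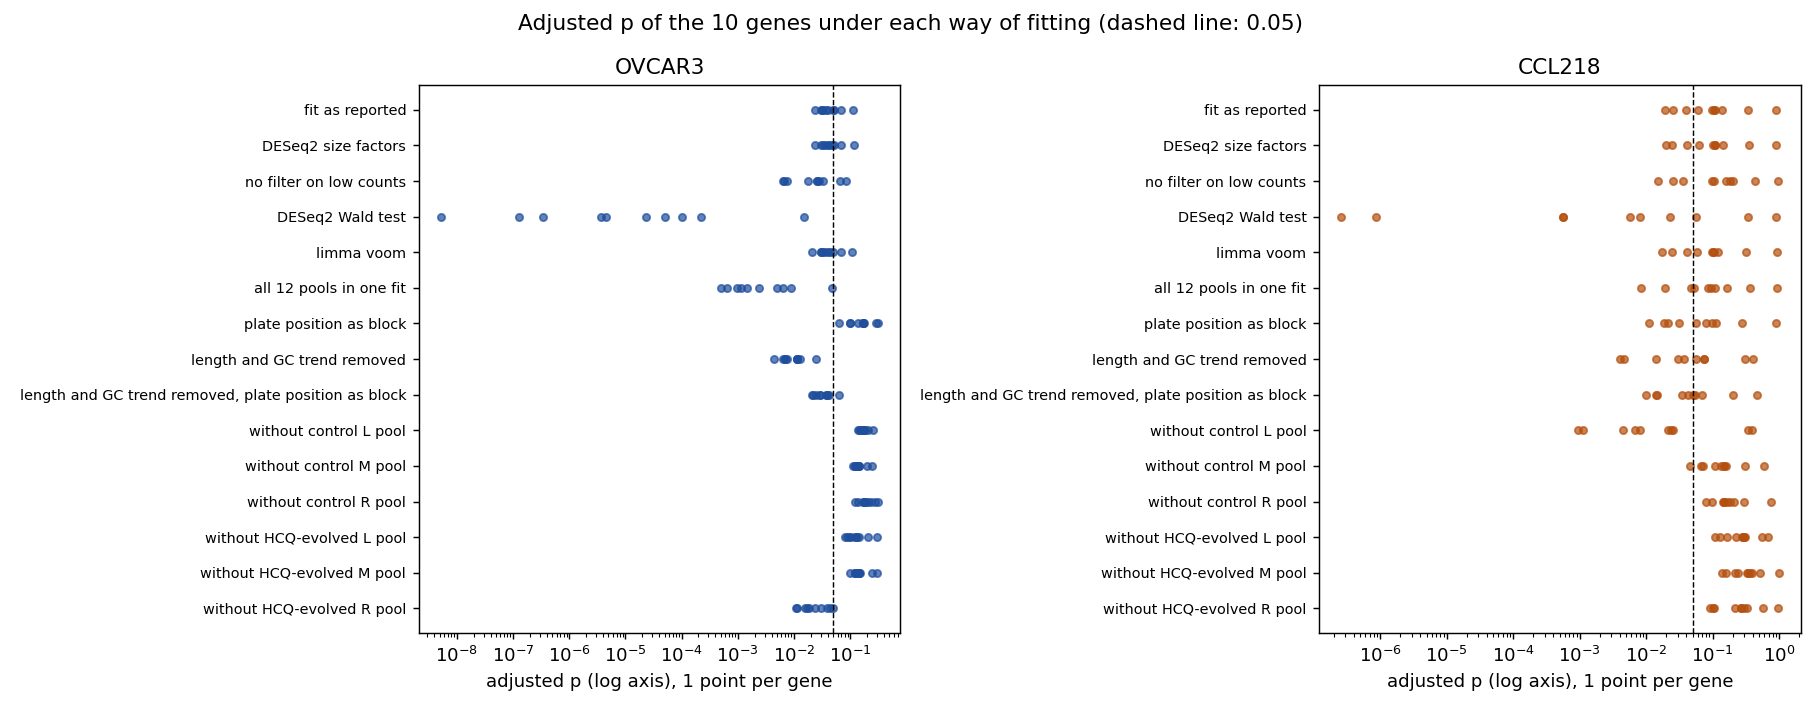
Adjusted p (x axis, log scale) of the 10 genes, 1 point per gene, for each way of fitting the data in OVCAR3 and CCL218, with 0.05 as a dashed line. In OVCAR3 all 10 points lay under 0.05 without HCQ-evolved R and none did without any other pool, and in CCL218 8 did without control L. Over all genes, 233 of 12113 were higher without HCQ-evolved OVCAR3 R, and 0 to 9 without any other OVCAR3 pool. Without control CCL218 L, 1646 of 12102 were.

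CDK1, the kinase at the centre of this network, stood at 69.3, 65.03 and 91.7 CPM in the L, M and R pools of control OVCAR3 and at 171.3, 216.8 and 160.7 CPM in HCQ-evolved OVCAR3. Every HCQ-evolved pool was well above the highest control pool. The log2 fold change was 1.29 (standard error 0.21, 95% interval 0.80 to 1.79, adjusted p = 0.0318), a 2.45-fold rise. In CCL218 its control pools stood at 77.7, 70.9 and 78.5 CPM and its HCQ-evolved pools at 122.6, 119.4 and 109.6 CPM, again with no overlap. There it rose by 0.63 (standard error 0.12, interval 0.35 to 0.90, adjusted p = 0.0251). With single pools left out CDK1 passed in 1 of 6 fits in each line, without HCQ-evolved R in OVCAR3 (adjusted p = 0.0108) and without control L in CCL218 (0.00113). It reached adjusted p of up to 0.179 and 0.160 in the other fits.

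CCNA2 encodes cyclin A2, which binds CDK2 in S phase and CDK1 in G2. It had the largest change of the 10 genes in OVCAR3, from 36.7, 65.3 and 62.5 CPM in control L, M and R pools to 128.3, 142.8 and 180.0 CPM in HCQ-evolved pools. Pools were apart, but the log2 fold change of 1.47 (standard error 0.28, interval 0.82 to 2.12) had an adjusted p of 0.0502, or 0.0299 without HCQ-evolved R. In CCL218, CCNA2 stood at 39.1, 74.1 and 80.4 CPM in control pools and within a narrow range, 104.4, 108.5 and 107.3 CPM, in HCQ-evolved pools. The L pool was the lowest control pool in both lines. The CCL218 difference was 0.72 (standard error 0.26, adjusted p = 0.139), or 0.46 to 0.91 with single pools left out. With plate position as a block it was 0.79 and passed (adjusted p = 0.0311).

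CCNB1 and CCNB2 encode the B cyclins, the partners of CDK1 in mitosis. In control OVCAR3 pools CCNB1 stood at 122.6, 116.5 and 127.1 CPM, and in HCQ-evolved pools at 227.8, 244.3 and 213.7 CPM. CCNB2 went from 122.4, 116.6 and 141.1 CPM to 236.0, 273.9 and 220.6 CPM. Both rose, by 0.92 for CCNB1 (standard error 0.15, adjusted p = 0.0336) and by 0.96 for CCNB2 (standard error 0.17, adjusted p = 0.0409). Each passed in 1 of 6 fits with a pool left out, the one without HCQ-evolved R (adjusted p = 0.0155 and 0.0172), and reached 0.178 and 0.179 in the others. CCL218 control pools held 117.0, 121.8 and 126.9 CPM of CCNB1 and 85.4, 96.4 and 108.8 CPM of CCNB2. Its HCQ-evolved pools held 163.6, 149.8 and 153.7 CPM of CCNB1 and 133.3, 129.6 and 125.1 CPM of CCNB2. Pools did not overlap for either cyclin, and the differences of 0.35 (interval 0.09 to 0.61, adjusted p = 0.108) and 0.41 (interval 0.11 to 0.72, adjusted p = 0.105) did not pass. Without control L they did (adjusted p = 0.0236 and 0.0251).

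CDC25C, the phosphatase that removes inhibitory phosphates from CDK1, had the lowest levels of the set. It stood at 22.6, 22.2 and 22.7 CPM in control OVCAR3 and at 36.4, 40.9 and 35.2 CPM in HCQ-evolved OVCAR3. In CCL218 it went from 18.6, 20.3 and 18.5 CPM to 30.4, 33.4 and 25.8 CPM. The log2 fold change was 0.75 in OVCAR3 (standard error 0.17, adjusted p = 0.0678) and 0.64 in CCL218 (standard error 0.14, adjusted p = 0.0402), and only the latter passed. In CCL218 it passed in 1 of 6 fits with a pool left out, without control L (adjusted p = 0.0067), and reached 0.222 in the others. In OVCAR3 it passed without HCQ-evolved R (0.0438).

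CDC20, which the spindle checkpoint holds back until chromosomes are attached, had close values in the HCQ-evolved pools of OVCAR3. Control OVCAR3 pools stood at 110.6, 88.9 and 96.6 CPM and HCQ-evolved pools at 182.0, 185.2 and 182.7 CPM. It rose by 0.91 (standard error 0.16, interval 0.54 to 1.28, adjusted p = 0.0380), and passed without HCQ-evolved R (0.0240) but with no other pool left out (up to 0.208). In CCL218 control pools of 94.4, 99.9 and 105.3 CPM lay below HCQ-evolved pools of 142.5, 131.9 and 135.1 CPM. That difference was 0.45 (standard error 0.11, interval 0.18 to 0.71) and did not pass (adjusted p = 0.0608), other than without control L (0.00814).

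PLK1, a kinase that promotes mitotic entry and centrosome maturation, stood at 83.8, 102.0 and 98.7 CPM in control OVCAR3 and at 171.4, 164.3 and 196.7 CPM in HCQ-evolved OVCAR3. Pools were apart, and the log2 fold change of 0.92 (standard error 0.18, interval 0.50 to 1.34) had an adjusted p of 0.0517, or 0.0394 without HCQ-evolved R. In CCL218 the groups overlapped: control R, at 119.5 CPM, was above HCQ-evolved M, at 115.9 CPM. The other control pools there were at 84.8 (L) and 109.9 (M) CPM, and the other HCQ-evolved pools at 134.5 (L) and 126.3 (R) CPM. The difference of 0.26 had an interval from -0.11 to 0.62 (adjusted p = 0.337) and was 0.12 to 0.36 with single pools left out. Within each plate position the HCQ-evolved pool was above its control, and with position as a block the difference was 0.27 (adjusted p = 0.275).

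The Aurora kinases act at different places, AURKA at centrosomes and spindle poles and AURKB at centromeres and the midzone. In OVCAR3, AURKA went from 79.3, 85.9 and 86.6 CPM in control pools to 157.9, 163.5 and 178.2 CPM in HCQ-evolved pools. It rose by 1.01 (standard error 0.16, interval 0.63 to 1.39, adjusted p = 0.0309), passed without HCQ-evolved R (0.0188) and did not with any other pool left out (up to 0.176). In CCL218 its control pools (83.0, 87.1 and 93.8 CPM) lay below its HCQ-evolved pools (115.4, 115.6 and 110.7 CPM). That difference was 0.37 (standard error 0.11, interval 0.11 to 0.63, adjusted p = 0.0996), and it passed without control L (0.0210).

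AURKB had the lowest log2 fold change of the 10 in CCL218. Its control OVCAR3 pools stood at 48.3, 28.6 and 43.8 CPM and HCQ-evolved OVCAR3 pools at 77.6, 81.7 and 60.9 CPM. In CCL218 control pools stood at 47.4, 29.2 and 31.9 CPM and HCQ-evolved pools at 41.4, 32.5 and 31.1 CPM. The OVCAR3 groups did not overlap, while those of CCL218 did, with the highest value in a control pool. AURKB has the shortest transcript of the 10 (1243 bases), and its lowest OVCAR3 control pool, M, was the one control OVCAR3 pool in which deviation rose with length (rho 0.523). The log2 fold changes were 0.88 in OVCAR3 (standard error 0.24, interval 0.33 to 1.44, adjusted p = 0.113) and -0.05 in CCL218 (standard error 0.22, interval -0.57 to 0.46, adjusted p = 0.897). In CCL218 the sign turned with the trend along length and GC content removed (0.11) and with single pools left out (-0.19 without HCQ-evolved L, 0.19 without control L). The OVCAR3 difference passed without HCQ-evolved R (0.0499). In the 8 other ways of fitting that kept all pools it was 0.87 to 1.04 and passed in 4. With the trend along length and GC content removed it passed, as did all 10 genes (adjusted p up to 0.0251). The part of transcript length in the OVCAR3 difference was not tested.

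NEK2, a kinase that separates centrosomes at mitotic entry, had the lowest adjusted p of the set in both lines. Control OVCAR3 pools stood at 35.2, 35.0 and 41.4 CPM and HCQ-evolved pools at 78.3, 89.2 and 87.8 CPM, a 2.31-fold rise (log2 fold change 1.21, standard error 0.18, interval 0.79 to 1.63, adjusted p = 0.0239). In CCL218 it went from 34.7, 38.9 and 39.5 CPM to 64.4, 65.9 and 58.1 CPM, a 1.66-fold rise (0.73, standard error 0.12, interval 0.44 to 1.02, adjusted p = 0.0192). No pools overlapped in either line. In OVCAR3 it passed without HCQ-evolved R (0.0114) and did not without any other pool (up to 0.147). In CCL218 it passed without control L (0.000958) or control M (0.0463) and reached 0.140 without the others.

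**Figure D3:**
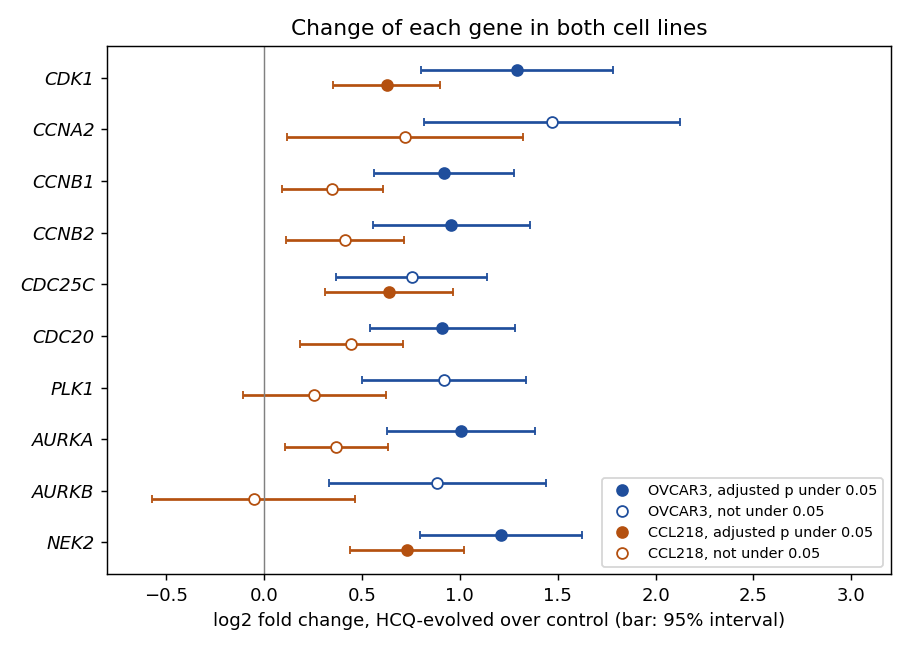
Log2 fold change of HCQ-evolved over control pools (x axis) for each of the 10 genes, with 95% intervals, in OVCAR3 (blue) and CCL218 (orange), filled where the adjusted p was under 0.05. The OVCAR3 value was the higher for every gene, with the smallest gap for CDC25C and the widest for AURKB.

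An interaction term in a joint fit of the 12 pools (CCL218 change minus OVCAR3 change) tested whether the lines differed in their change. All 10 differences were below 0, from -0.91 for AURKB to -0.09 for CDC25C, with a median of -0.58 against -0.030 for all 12613 genes tested. At an adjusted p under 0.05, 0 of 10 passed with edgeR, where 0.182% of all genes were lower by that rule. The adjusted p ran from 0.120 (AURKA) to 0.999 (CDC25C). At an unadjusted p under 0.05, 8 of 10 were lower, against 3.7% of all genes. DESeq2's Wald test called 2 of the 10, and 157 of all 12613 genes as lower. CDK1 differed by -0.65 (interval -1.15 to -0.15), CCNB1 by -0.55 (interval -0.90 to -0.21) and AURKA by -0.62 (interval -0.97 to -0.27). CDC25C differed by -0.09 (interval -0.50 to 0.32) and CCNA2 by -0.73 (interval -1.59 to 0.13), and the intervals of these last ones held 0. With the trend along length and GC content removed, AURKB, CCNB1 and CDK1 passed (adjusted p = 0.0059, 0.0377 and 0.0377), and with plate position as a block in addition, AURKB alone did (0.0423). Of all 12613 genes, 210 were lower with the trend removed and 39 with the block in addition.

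Control pools of the lines were compared for the same genes. Between control CCL218 and control OVCAR3, 0 of 10 genes passed in the same fit, against 3.42% of all genes in either direction, and at an unadjusted p under 0.05 only CCNB2 did. CCNB2 was lower in CCL218 by a log2 difference of -0.39 (interval -0.69 to -0.08, adjusted p = 0.199). For CDK1 the difference was 0.01 (interval -0.35 to 0.36), and for CCNB1 it was -0.00 (interval -0.25 to 0.24).

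Per kilobase of transcript, CCNB2 had the highest mean level in every group, though its pools overlapped with those of CDC20 in both CCL218 groups, and CDC25C had the lowest. In control OVCAR3 these were 85.2 ± 8.62 and 10.8 ± 0.126 CPM per kb (SD, n = 3 pools). CCNB1 (60.2 ± 2.63 CPM per kb) and CDC20 (59.9 ± 6.68) came next and did not differ beyond their spread. They were followed by PLK1, AURKA and CDK1 at 43.9, 41.3 and 39.9 CPM per kb, whose neighbours overlapped, and by AURKB (32.4), CCNA2 (19.95) and NEK2 (17.4), each overlapping with the gene before it. NEK2 and CDC25C did not overlap. In HCQ-evolved OVCAR3, CDK1 stood at 96.8 ± 15.8 CPM per kb and was placed before PLK1 (82.2 ± 7.89), with overlapping pools. The order of control CCL218 was the same but for CDC20 and CCNB1, whose pools overlapped, where CCNB2 stood at 65.1 ± 7.87 and CDC20 at 60.6 ± 3.30 CPM per kb. In HCQ-evolved CCL218 AURKB (28.2 ± 4.49 CPM per kb) came after CCNA2 (38.8 ± 0.763) and NEK2 (29.4 ± 1.94), its pools overlapping those of NEK2.

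Ratios between partners were compared within pools, 4 ratios in each line. The log2 ratio of CCNB1 to CDK1 was 0.71 ± 0.21 in control and 0.33 ± 0.14 in HCQ-evolved OVCAR3 (SD, n = 3), and 0.69 ± 0.10 and 0.41 ± 0.08 in CCL218. Thus in both lines there was less CCNB1 RNA per CDK1 RNA in each HCQ-evolved pool than in any control pool. With 3 pools against 3 an exact permutation test, two-sided, gave p = 0.1 in each line, the smallest it allows, and 0.4 after adjustment over the 8 tests. CCNB1 to CCNB2, AURKA to AURKB and CCNA2 to CDK1 overlapped between groups in both lines (exact permutation p from 0.3 to 1.0).

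Over the 12 pools the genes rose and fell with each other, as far as groups and cell lines that they share allow one to say. The correlation of each gene with the mean of the other 9 ran from 0.681 (AURKB) and 0.848 (CCNA2) to 0.992 (CCNB1), a description with no test since the 4 groups set most of it. Genes outside the set whose log2 CPM was most like the mean of the set were CENPA, the centromeric histone H3 (Pearson's r = 0.993), KIF2C, a kinesin that depolymerizes microtubules (0.992), ENO1, a glycolytic enzyme (0.981), NEIL3, a DNA glycosylase (0.978), and TUBA1B, an alpha-tubulin (0.976). These genes were chosen for likeness over the same pools, so their fold changes are given as a description, and ENO1 and TUBA1B have close copies that can share their reads. CENPA rose by 1.12 in OVCAR3 (adjusted p = 0.0289). In CCL218 its difference of 0.52 had an adjusted p of 0.0528, or 0.0441 with plate position as a block. KIF2C rose by 1.10 in OVCAR3 (adjusted p = 0.0218) and by 0.56 in CCL218 (0.0433). CENPA and KIF2C passed in OVCAR3 without HCQ-evolved R (adjusted p = 0.0158 and 0.0111) but not with any other pool left out (0.0804 to 0.151). In CCL218 KIF2C passed without control L (0.00371) and with no other pool left out (up to 0.222).

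MKI67 and TOP2A, common proliferation markers, spread widely between pools. MKI67 stood at 208.9, 262.8 and 113.5 CPM in control OVCAR3 and at 202.5, 192.8 and 797.3 CPM in HCQ-evolved OVCAR3. Only HCQ-evolved R was above the control pools. The log2 fold change, 1.06 with a standard error of 0.60 (adjusted p = 0.442), became 0.03 without that pool. TOP2A had 178.6, 303.7 and 185.6 CPM in control OVCAR3 and 317.3, 292.4 and 765.0 CPM after evolution, with overlapping pools and the same high R pool (1.06, adjusted p = 0.271, and 0.46 without HCQ-evolved R). HCQ-evolved OVCAR3 R was the pool with the highest rho with length (0.556), and the transcripts of MKI67 (12716 bases) and TOP2A (5695 bases) are longer than those of the 10 genes (1243 to 2748 bases). With the trend along length and GC content removed, the OVCAR3 values were 0.93 (adjusted p = 0.146) for MKI67 and 0.86 (0.0922) for TOP2A.

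In CCL218 MKI67 changed by 0.12 (adjusted p = 0.801), with pools from 255.9 to 406.0 CPM in control and from 247.7 to 437.6 CPM after evolution, which overlapped. TOP2A stood at 215.1, 384.0 and 341.0 CPM in control and at 404.9, 499.1 and 506.5 CPM in HCQ-evolved CCL218, so that pools were apart. Its difference of 0.58 had an adjusted p of 0.164, and 0.62 with plate position as a block passed (adjusted p = 0.0292). It was 0.37 without control L (adjusted p = 0.0420).

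**Figure D4:**
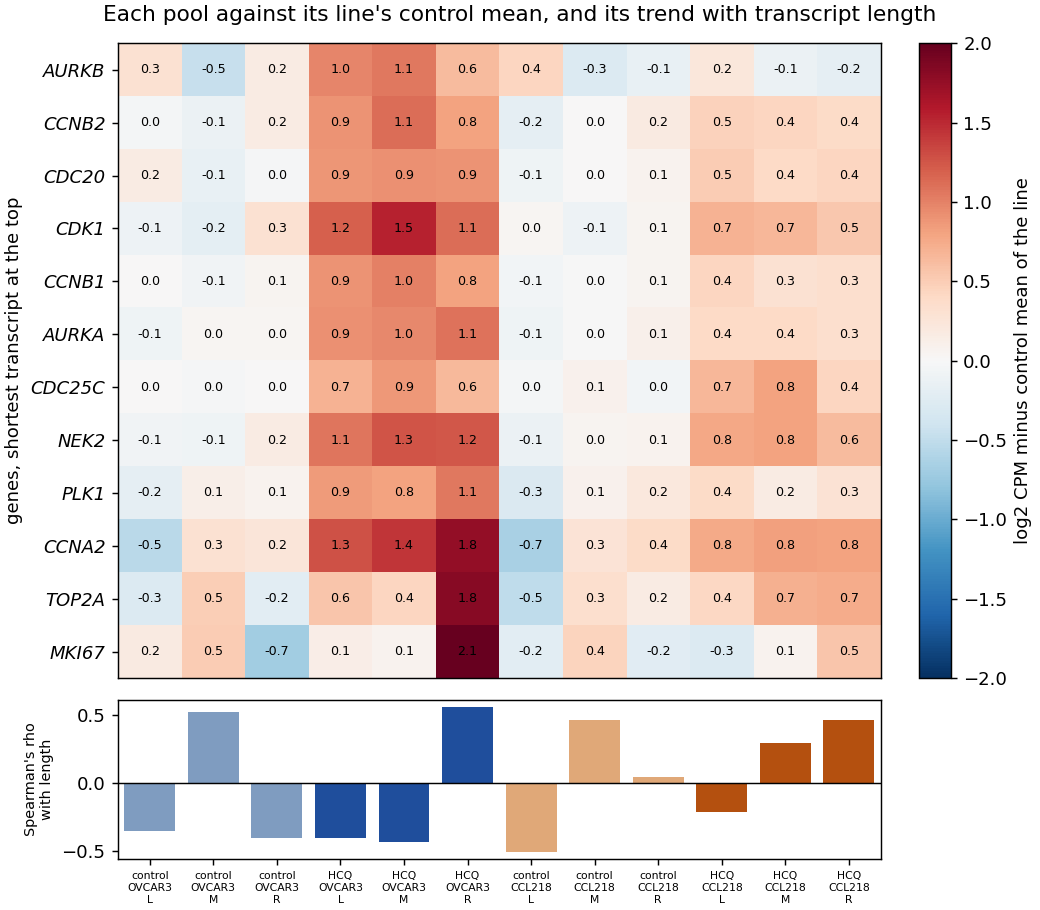
Upper panel, log2 CPM of each pool minus the control mean of its line for the 10 genes and for TOP2A and MKI67, ordered by transcript length. Lower panel, Spearman's rho across genes between transcript length and how far a pool was from its line's mean. The 10 genes were raised in all 3 HCQ-evolved OVCAR3 pools, while MKI67 was raised in the R pool, where rho was 0.556.

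Other genes of the network were read from 6 lists chosen by function. Over all genes, an unadjusted p under 0.05 was found for 8.38% higher and 7.87% lower in OVCAR3, and for 12.5% higher and 12.7% lower in CCL218, and the counts of each list at that threshold are read against these shares. With plate position as a block, 7.82% of all genes rose and 6.43% fell in CCL218. Of CDK1 regulators and mitotic entry genes, 13 were tested. In OVCAR3 1 rose (all genes, 0.647%), in CCL218 1 did (all genes, 3.82%), and none fell. At an unadjusted p under 0.05, 6 were higher in OVCAR3 and 4 in CCL218, and none was lower. The median log2 fold changes were 0.60 and 0.16. CCNF, a cyclin that serves as an F-box protein, rose in OVCAR3 from 44.9 ± 5.45 to 95.5 ± 13.4 CPM (1.11, adjusted p = 0.0450), with adjusted p of 0.0279 without HCQ-evolved R and 0.105 to 0.220 without any other pool. GTSE1, a microtubule-associated protein of G2 and S phase, rose in CCL218 from 35.0 ± 2.44 to 54.3 ± 0.359 CPM (0.63, adjusted p = 0.0261), with 0.00158 without control L and 0.0656 to 0.164 without any other pool. WEE1, which inhibits CDK1, differed by 0.92 in OVCAR3 (adjusted p = 0.104) and PKMYT1, which does likewise, by 0.88 (0.0583). Both were named after their values were seen.

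Among 17 partners and relatives of the Aurora, Polo and NEK kinases, 0 passed in either line with edgeR, and with the block 2 rose in CCL218, TTK and the checkpoint kinase BUB1 (0.66, adjusted p = 0.0476). At an unadjusted p under 0.05, 11 were higher and 2 lower in OVCAR3, and 3 were higher in CCL218, the latter near the share of all genes. Their medians of 0.93 and 0.30 were close to those of the 10 genes. BIRC5 (survivin), which forms the chromosomal passenger complex with AURKB, was at 71.6 ± 13.2 CPM in control and 144.4 ± 16.7 CPM in HCQ-evolved OVCAR3 (1.02, adjusted p = 0.0517). TTK, a spindle checkpoint kinase, was at 20.4 ± 2.47 and 29.2 ± 0.784 CPM in CCL218 (0.52, adjusted p = 0.0658, or 0.0411 with the block).

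APC/C subunits and their helpers, the machine that CDC20 activates, had few changes. Of 20 genes, 0 passed in either line with edgeR, and with the block 1 fell in CCL218, with medians of 0.17 in OVCAR3 and -0.01 in CCL218. At an unadjusted p under 0.05, 2 were higher in OVCAR3, and 1 was higher and 4 lower in CCL218, out of 20, which is no result about the list. The smallest p of the list belonged in OVCAR3 to MAD2L1, a checkpoint inhibitor of the complex (50.9 ± 19.5 against 128.6 ± 23.2 CPM, 1.35, adjusted p = 0.0872). In CCL218 it belonged to the subunit ANAPC7 (76.4 ± 15.2 against 48.9 ± 2.42 CPM, -0.65, adjusted p = 0.0646), and it is the one that fell with the block (-0.63, adjusted p = 0.0230).

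Transcription factors of the B-MYB, FOXM1 and DREAM group, which act on CHR elements, gave 0 calls among 13 genes in both lines with edgeR, and medians of 0.39 and -0.03. At an unadjusted p under 0.05, 3 were higher in OVCAR3, and 1 was higher and 1 lower in CCL218. MYBL2 (B-MYB) was at 173.2 ± 0.972 CPM in control and 256.5 ± 37.6 CPM in HCQ-evolved OVCAR3 (0.59, adjusted p = 0.146). E2F4, a repressor in DREAM, was at 88.0 ± 12.04 and 65.1 ± 5.63 CPM in CCL218 (-0.44, adjusted p = 0.121).

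G1/S cyclins, CDKs and replication genes had lower medians than the 10 genes. Of 22 genes, 1 rose and 1 fell in OVCAR3 (0.647% and 1.21% of all genes), with a median of 0.33, and 0 passed in CCL218 with edgeR (all genes, 3.82% higher and 2.64% lower), with a median of -0.00. With the block CDK6, a kinase that partners cyclin D, fell in CCL218 (-0.72, adjusted p = 0.0353). At an unadjusted p under 0.05, 7 were higher and 2 lower in OVCAR3, and 3 were lower in CCL218. RRM2, a subunit of ribonucleotide reductase named after its values were seen, rose by 1.08 in OVCAR3 (adjusted p = 0.0484, 0.0326 without HCQ-evolved R and 0.110 to 0.177 without any other pool). CCND1 (cyclin D1), a driver of G1, fell in OVCAR3 from 179.6 ± 28.5 to 83.8 ± 9.13 CPM (-1.08, adjusted p = 0.0380, 0.0283 without HCQ-evolved R and 0.113 to 0.168 without any other pool). In CCL218 it stood at 225.3 ± 22.3 and 255.2 ± 17.2 CPM (0.18, adjusted p = 0.411). CCNE1 (cyclin E1) was at 11.2 ± 1.99 CPM in control and 7.56 ± 0.519 CPM in HCQ-evolved CCL218 (-0.57, adjusted p = 0.0987).

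**Figure D5:**
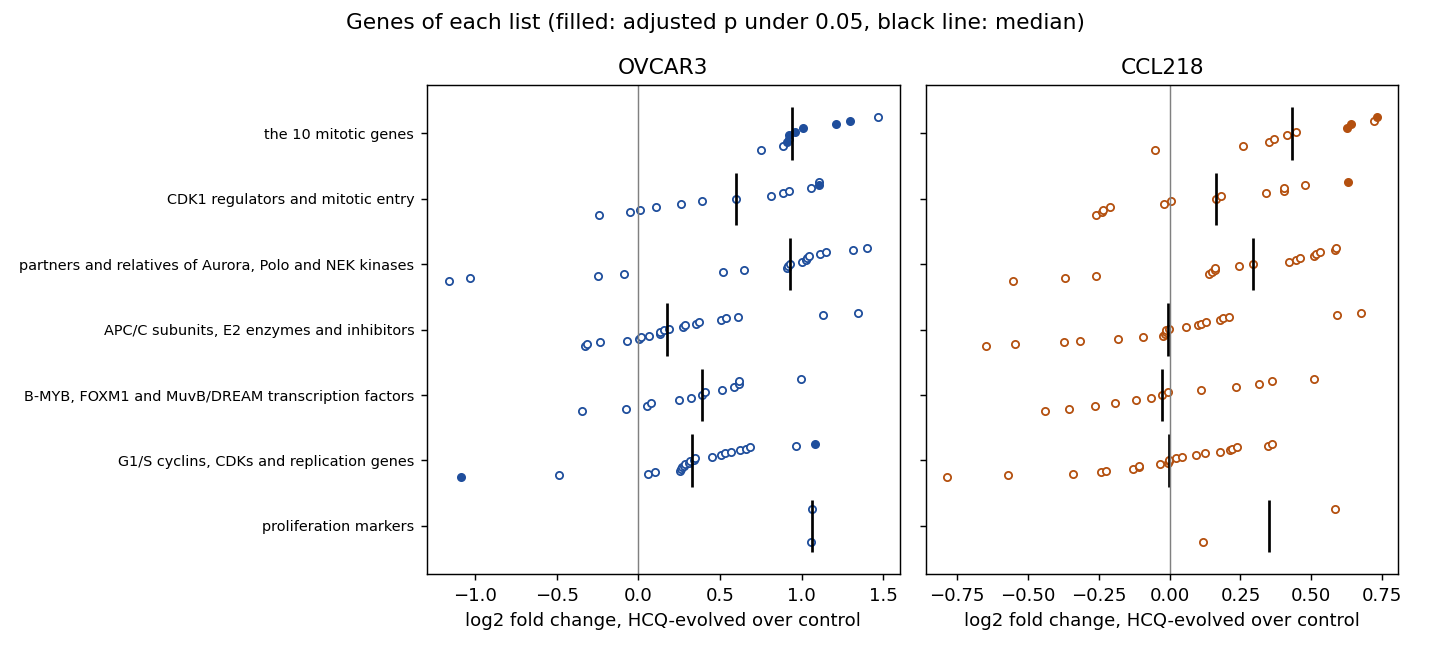
Log2 fold change of HCQ-evolved over control (x axis) for each tested gene of the 10-gene set and of 6 lists, in OVCAR3 and CCL218, filled where the adjusted p was under 0.05, with the list's median as a black line. The 10 genes had medians of 0.94 and 0.43, and the APC/C list had 0.17 and -0.01.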

How the data were processed

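The authors aligned paired-end reads to hg38 with STAR, removed duplicates with RmDup and counted reads per gene with featureCounts, and the deposited counts for 12 pools were taken as given (0 columns lacked a sample). Duplicate removal can lower counts of abundant genes, and versions are not given in the sources used here. The 10 genes and all lists were chosen with earlier results of these data known. Each line was fitted alone in R 4.3.3 with edgeR 4.0.16 (TMM scaling, quasi-likelihood F test, robust dispersion, legacy mode), for genes that reached 1 CPM in 3 or more libraries. P-values were adjusted by Benjamini-Hochberg over all genes tested, with 0.05 as the threshold. The interaction and the comparison of controls came from a joint fit of the 12 pools. CPM values shown used TMM factors over 12 pools, and log2 CPM a prior count of 2.

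Alternatives were DESeq2 size factors, DESeq2 1.42.0 (Wald test), limma 3.58.1 voom, no filter, all pools in one fit, each pool left out, a block for plate position, and an offset removing a spline trend (4 degrees of freedom) with transcript length and GC content. Length and coordinates came from GENCODE 44, matching 25763 of 28278 symbols (91.1%). The pipeline was tested on simulated data. After group means were removed, control and HCQ-evolved CCL218 pools of the same position correlated across genes at 0.506 (L), 0.233 (M) and 0.195 (R), so positions were taken to pair them, though control M correlated better with HCQ-evolved R (0.433). Apart from markers, genes named for their change are the 10 and the gene with the smallest p of each list in each line. The 5 other genes most correlated with the mean of the 10 were added. WEE1, PKMYT1 and RRM2 were named after their values were seen. BUB1 and CDK6 were too, since they passed with the block in CCL218.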

Additional observations from a re-analysis of the deposited data

Results flagged for a closer look

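CCND1 changed differently in the cell lines. The fold change in CCL218 exceeded that in OVCAR3 by 1.28 on the log2 scale (standard error 0.21, adjusted p = 0.0178 by edgeR's interaction test over all genes), from a fall of CCND1 in all 3 HCQ-evolved OVCAR3 pools (73.3 to 90.0 CPM, against 150.9 to 207.9 CPM in control) and overlapping pools in CCL218. With single pools left out the difference was 1.16 to 1.39, and it did not pass without control CCL218 R (adjusted p = 0.0596) or HCQ-evolved CCL218 L (0.0525), M (0.069) or R (0.0632). With plate position as a block the adjusted p was 0.0783. Its cause was not tested.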

How the results depend on the processing

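Of the 10 genes, 6 passed in OVCAR3, and 10 did with DESeq2's Wald test, with all 12 pools in one fit or with the length and GC trend removed, and 0 with plate position as a replicate block (adjusted p 0.0642 to 0.308). Of all 12204 genes, 79 were higher, 542 with DESeq2, 615 with the trend removed and 17 with the block. With all pools in one fit 558 of 12613 were. Same-position OVCAR3 pools correlated at 0.401, -0.665 and -0.478, and control L alone correlated best with its own position. Control M correlated best with HCQ-evolved R (0.692), and deviation rose with length in both (rho 0.523 and 0.556). These correlations thus cannot show whether position pairs the pools. Leaving out single pools gave 0 to 10 in OVCAR3 and 0 to 8 in CCL218, where 3 passed, 7 with DESeq2 and 5 with the trend removed, with or without the block. Over all genes, leaving out pools gave 0 to 233 higher in OVCAR3 and 72 to 1646 in CCL218. Of 12241 genes in CCL218, 468 were higher, 1104 with DESeq2, 1180 with the trend removed and 1090 with the block in addition. The block changed no other call among the 10 genes in CCL218 than that of CCNA2. The interaction gave 2 calls with DESeq2, 3 with the trend removed and 1 with the block in addition. Of all 12613 genes, 157, 210 and 39 were lower in these fits, in that order. The OVCAR3 median (0.94) was 1.04 with the trend removed, with or without the block, and the median difference between controls became 0.17 in both. Turned signs were those of AURKB in CCL218 (0.115 with the trend removed, 0.113 with the block in addition, -0.188 to 0.186 leaving out pools), MKI67 in CCL218 (-0.128 to 0.379 leaving out pools) and the interaction of CDC25C (-0.182 to 0.00156). Causes were not tested. The 3 pools of a group came from one plate, which limits these data.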
